A study of Mus musculus with 663 samples.

Results

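Supporting-lineage cells of the XX mouse gonad were compared between the embryonic stage E16.5 (E for embryonic day) and postnatal day 6 (P6). They were selected on measured values: S is the mean of log2(RPKM + 1) over Foxl2, Fst, Kitl, Runx1 and Wnt4, T is the same mean over the stromal genes Nr2f2, Pdgfra, Dcn, Col1a1 and Tcf21, and a cell was kept where S − T was at least 1. RPKM is a read number normalised to gene length and to the reads of the library. The rule kept 83 of the 662 cells of the series, 43 of 95 cells at E16.5 and 40 of 121 at P6. All cells came from gonads labelled XX of mice of mixed background that carry an eGFP reporter of Nr5a1, with no other treatment named, and were sorted as live eGFP-positive single cells before capture on C1 microfluidic chips. Each stage had 2 captures (chip runs), and the capture was the replicate. Nothing in the labels ties captures to litters. The p-values therefore cover the variation among chip runs alone, part of which can be technical. All 4 captures belonged to 1 sequencing series. Cells without the reporter were not sampled.

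Supporting cells are the somatic cells that surround germ cells. In the fetal ovary they are pregranulosa cells, kept on the ovarian path by the transcription factor Foxl2 and by R-spondin and Wnt4 signals through beta-catenin. After birth they become the granulosa cells of follicles. In a resting follicle they are flat and rarely divide, and in a growing follicle they divide and make anti-Müllerian hormone, inhibin and enzymes of estrogen synthesis.

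The gate kept 26 of 55 cells (47.3%, exact 95% Clopper-Pearson interval 33.7 to 61.2) and 17 of 40 cells (42.5%, 27.04 to 59.1) in the E16.5 captures. In the P6 captures it kept 22 of 55 (40%, 27.02 to 54.1) and 18 of 66 (27.3%, 17.03 to 39.6). These intervals cover counting error only, and the shares depend on the sort. In the opposite gate, T − S of at least 1, lay 17, 20, 26 and 41 stromal cells of the same captures. The kept cells nearest the limit had S − T of 1.037, 1.045 and 1.058, and the nearest cells left out had 0.963, 0.906 and 0.864. Median detected genes per kept cell were 5138 and 5135 at E16.5 and 5311 and 4349 at P6, and their median depth, read off the step that 1 read makes in a cell's values, was 2.49M to 2.87M reads. No doublet caller was run.

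**Figure D1:**
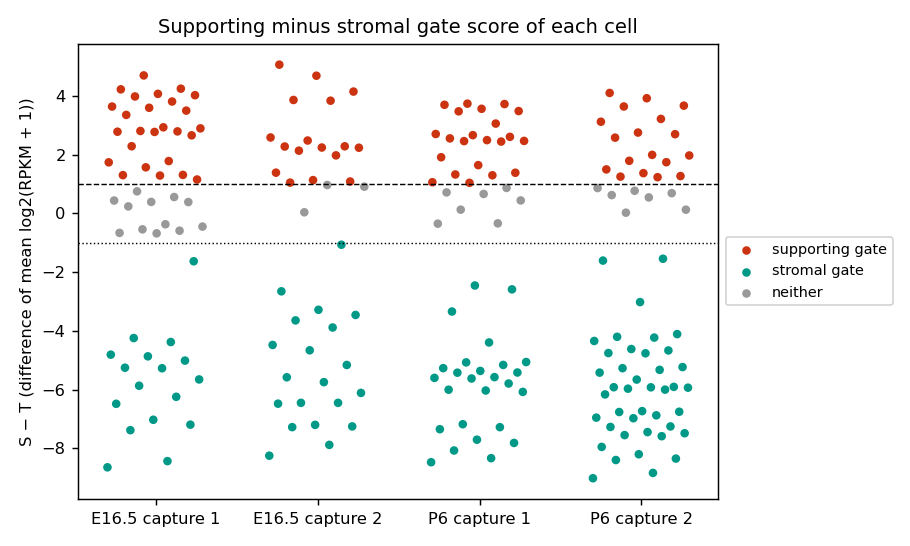
Gate score S − T of every cell (vertical axis, difference of mean log2(RPKM + 1)) in the 4 captures, with the supporting gate at 1 (dashed line) and the stromal gate at −1 (dotted line). The gap between stromal cells and the 83 supporting-lineage cells is set by the gates themselves, and 29 cells lie in neither gate, some of them just under the limit of 1.

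The genes that set the gate differed in level within it, which is given as description without a test. Foxl2, the transcription factor that keeps the ovarian fate, averaged 14.3 and 25.2 RPKM in the E16.5 captures and 29.6 and 36.2 RPKM in the P6 captures, and it was detected in 21 of 43 and 37 of 40 cells. Wnt4, a ligand of the fetal ovary, averaged 13.2 and 36.1 RPKM and then 2.74 and 5.69 RPKM. Kitl, the ligand for the Kit receptor of oocytes, averaged 169 and 174 RPKM and then 102.9 and 80.7 RPKM. Fst, which binds activin, stood at 100.3 and 55.1 RPKM and then 85.6 and 55.6 RPKM, and Runx1 at 17.4 and 24.6 RPKM and then 18.7 and 10.6 RPKM. Thus Foxl2 was high and Wnt4 and Kitl were low at P6 with no overlap between the stages, while Fst and Runx1 overlapped. The stromal gate gene Dcn was at 31.4 RPKM in the first P6 capture, where 1 cell held 94.7% of the sum, against 0.842 RPKM in the second.

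The gate genes were also compared with stromal cells of the same captures. Since they define both gates, this describes which of them carried the gate and is no check of the label. Kitl and Fst were higher in the kept cells at both stages, with stromal means of at most 17.5 RPKM for Kitl and 9 RPKM for Fst. Foxl2 was at 0.00753 and 3.97 RPKM in stromal cells at E16.5, but at P6 stromal cells averaged 20.6 and 25.1 RPKM and 43 of 67 held it. Wnt4 at P6 was higher in stromal cells (11.1 and 24.3 RPKM) than in the kept cells. The part of shared or free RNA in these values was not tested.

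With 11899 genes at 1 RPKM or more in at least 2 captures tested by limma on log2(capture mean RPKM + 1), 4 were called at an adjusted p below 0.05 (0.0336% of genes tested), 2 higher and 2 lower at P6, and 1498 had an unadjusted p below 0.05. A capture mean can rest on 1 bright cell. When instead log2(RPKM + 1) was averaged over the cells of each capture, 58 genes were called higher and 57 lower (0.966% in all), and the 4 were among them. This second test was an alternative to the first. Below, these are called the capture-mean test and the log-mean test, and their log2 changes are P6 minus E16.5. Neither test called any gene once 1 of the 4 captures was left out, whichever it was, which leaves 1 residual degree of freedom. Every gene called in the log-mean test kept its direction in each of those fits. With all 11 captures of at least 5 kept cells sharing 1 estimate of the spread, 91 genes were called (0.765%), of which 27 were among the log-mean calls and 3 among the 4, but this fit crosses the sequencing series. Genes whose P6 captures both lay on one side of both E16.5 captures, with a change of at least 2-fold, made up 13.53% (higher) and 15.28% (lower) of those tested, and counts of list members are to be read against these shares.

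Inha, which encodes the alpha subunit of inhibin, the gonadal hormone that lowers pituitary follicle-stimulating hormone, averaged 40.7 and 38.7 RPKM in the E16.5 captures and 3587 and 2517 RPKM in the P6 captures. Both P6 captures lay far above both E16.5 captures. The mean was 39.7 ± 1.40 RPKM at E16.5 and 3052 ± 757 RPKM at P6 (SD, n = 2 captures), and Inha rose by 6.21 (SE 0.29) on the log2 scale in the capture-mean test (adjusted p = 0.00684) and by 7.43 in the log-mean test (adjusted p = 0.000284). Inha was detected in 20 of 43 cells at E16.5 and in 35 of 40 at P6. In GRCm38 it lies on chromosome 1 from 75507077 to 75510366. In supporting-gated cells of earlier captures it averaged 318 and 88.8 RPKM at E11.5, 112.5 and 123.9 RPKM in the first and the third E12.5 capture, and 59.4 and 23.3 RPKM at E13.5. The low level at E16.5 therefore followed higher levels at E11.5, though these captures, other than the third of E12.5, came from another sequencing series and were not tested. The second E12.5 capture is left out of these values because its gated cells had an estimated depth of only 0.159M reads. The E11.5 values rest on 8 and 5 gated cells, with Inha detected in 8 and 4 of them.

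Lect1, also named Cnmd, encodes chondromodulin, a glycoprotein of cartilage matrix known to restrain blood vessel growth. Its capture means were 0.00712 and 0 RPKM at E16.5 and 432 and 315 RPKM at P6, and it was detected in 1 of 43 and 26 of 40 cells. Captures of E11.5 to E13.5 held none of it, except for 0.0171 RPKM in the second of E13.5. It rose by 8.52 (SE 0.60) in the capture-mean test (adjusted p = 0.0400) and by 4.98 in the log-mean test (adjusted p = 0.00166). The gene lies on chromosome 14 from 79637690 to 79662170.

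Gng13, a gamma subunit of heterotrimeric G proteins known from taste and retinal cells, went the other way. It averaged 293 and 431 RPKM at E16.5 and 1.75 and 3.57 RPKM at P6, with 31 of 43 and 6 of 40 cells positive. The stages do not overlap. Gng13 fell by 6.65 (SE 0.53) on the log2 scale in the capture-mean test (adjusted p = 0.0493) and fell by 5.36 in the log-mean test (adjusted p = 0.00108). It had averaged 46.1 to 131.3 RPKM in 5 of the 6 captures of E11.5 to E13.5 that remain without the shallow second one of E12.5, and 0.0744 RPKM in the other. The 131.3 RPKM, in the second E11.5 capture, came from 2 of 5 gated cells, and the 0.0744 RPKM, in the first, from 1 of 8. Gng13 lies on chromosome 17 from 25717171 to 25719406. The fourth gene called was Gm27419, a small noncoding transcript (chromosome 10, 92135700 to 92135808) at 523 and 224 RPKM at E16.5 and listed at 0 in both P6 captures (log2 change −8.43, adjusted p = 0.0493). It overlaps an exon of the long noncoding RNA Rmst on the same strand, and their reads could not be told apart. Rmst, chosen after its values were seen, averaged 74.3 and 32.9 RPKM at E16.5 and was listed at 0 in both P6 captures (log-mean test, adjusted p = 0.00499).

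Without the cells whose mean log2(RPKM + 1) over 9 surface epithelium markers was at least 2, an alternative chosen after seeing the data, the capture-mean changes were 6.52 for Inha, 8.56 for Lect1 and −6.40 for Gng13. Each then missed the threshold narrowly (adjusted p = 0.0538, 0.0538 and 0.0591), and the log-mean test called 65 genes, all among its calls with every cell kept.

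The sequences before the start sites of Lect1 (Cnmd), Inhbb, Nr5a2 and Gng13 are shown because these genes were among those called, the first 3 higher and Gng13 lower at P6. Nr5a2 and Gng13 are shown at the first of their listed start sites. They are RefSeq sequences in GRCm38.p6, 5′ to 3′ on the gene's strand, and end just before the start site. The last base before the Gng13 start lies in an annotated exon and is left out. The Inha window lay mostly within an annotated exon and is not shown.
Cnmd, chr14:79662184-79662433, minus strand: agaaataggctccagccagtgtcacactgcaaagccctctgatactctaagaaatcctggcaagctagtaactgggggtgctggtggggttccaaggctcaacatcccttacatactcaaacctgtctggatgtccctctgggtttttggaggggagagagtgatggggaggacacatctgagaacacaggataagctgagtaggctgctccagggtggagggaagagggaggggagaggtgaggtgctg
Inhbb, chr1:119422249-119422498, minus strand: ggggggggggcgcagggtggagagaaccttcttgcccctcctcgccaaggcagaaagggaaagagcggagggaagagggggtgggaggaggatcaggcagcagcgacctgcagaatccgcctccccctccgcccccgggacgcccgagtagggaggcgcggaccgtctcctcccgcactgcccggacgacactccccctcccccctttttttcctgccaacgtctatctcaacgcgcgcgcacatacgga
Nr5a2, chr1:136960449-136960698, minus strand: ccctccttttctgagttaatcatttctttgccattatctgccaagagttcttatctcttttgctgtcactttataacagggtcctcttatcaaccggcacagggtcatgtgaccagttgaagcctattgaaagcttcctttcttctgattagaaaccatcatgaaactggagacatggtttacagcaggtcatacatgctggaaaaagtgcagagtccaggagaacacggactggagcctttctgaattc
Gng13, chr17:25716922-25717170, plus strand: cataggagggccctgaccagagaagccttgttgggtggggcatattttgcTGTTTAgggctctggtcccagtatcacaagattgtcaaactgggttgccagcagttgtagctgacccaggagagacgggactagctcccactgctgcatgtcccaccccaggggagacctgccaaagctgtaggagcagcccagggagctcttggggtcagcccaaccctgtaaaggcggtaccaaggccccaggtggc
A set of 4 motifs was searched on both strands: AAGGTCA, bound by NR5A receptors (in 4.08% of 32851 mouse windows of 250 bases), TGACG, a part of the cyclic AMP response element (17.8%), CTTTGA of TCF/LEF factors (13.8%) and TAAACA of forkhead factors (12%). The only match in the 4 windows was TAAACA on the reverse strand before Gng13, 200 to 195 bases before its start site and shown in capitals. These letters are a description of the windows and show no binding.

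Of 20 genes fixed as markers of granulosa cells in growing follicles, 17 were tested, and 16 of the 17 had P6 captures above both E16.5 captures by at least 2-fold (background 13.53%). Of the 17, 7 met the filter through the P6 captures alone (Amh, Hsd17b1, Nr5a2, Cyp19a1, Ihh, Nap1l5 and Nppc) and could only count as higher. Of the 10 with at least 1 RPKM in a capture of each stage, 9 were higher by the rule. The median log2 change of the 17, which includes the 7, was 4.49, against −0.02 over all genes tested. The log-mean test called 8 of them, all higher: Amh, Hsd17b1, Inha, Inhbb, Nr5a2, Esr2, Slc18a2 and Serpine2. The capture-mean test called Inha alone. The list was drawn up with earlier results of these cells known, so its direction is not independent evidence.

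Amh, the hormone of growing follicles that restrains the recruitment of others, was listed at 0 in all 43 E16.5 cells and averaged 17.5 and 20.7 RPKM in the P6 captures, with 10 positive cells in each. For counting error alone, with cells taken as independent, 0 of 43 allows a share of up to 6.98% of cells in which Amh is detected, which is no limit on cells that express it. Inhbb, the beta B subunit shared by inhibin and activin, averaged 2.37 and 0.0356 RPKM and then 64.3 and 71.5 RPKM. Hsd17b1, which converts estrone to estradiol, averaged 0 and 0.657 RPKM and then 219 and 137.4 RPKM. The P6 captures were higher for all 3 without overlap, and log-mean changes were 2.20 for Amh (adjusted p = 0.0353), 2.88 for Inhbb (adjusted p = 0.0128) and 3.08 for Hsd17b1 (adjusted p = 0.0145). In the capture-mean test their adjusted p-values were 0.291, 0.251 and 0.0699.

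The nuclear receptor Nr5a2, needed in granulosa cells for ovulation, averaged 0.0106 and 0 RPKM and then 23.4 and 26.9 RPKM, and was detected in 1 of 43 and 32 of 40 cells. It rose by 3.16 in the log-mean test (adjusted p = 0.00837). Its relative Nr5a1, the gene of the sort reporter, averaged 43 and 36.2 RPKM and then 23.7 and 19.1 RPKM and did not pass either test (adjusted p = 0.563 and 0.298). Esr2, the estrogen receptor of granulosa cells, averaged 2.67 and 0.289 RPKM and then 33.7 and 67.4 RPKM, and rose by 3.12 in the log-mean test (adjusted p = 0.0116). Gja1, the gap junction protein connexin 43 that couples granulosa cells, averaged 317 and 297 RPKM and then 1533 and 934 RPKM, with adjusted p-values of 0.206 and 0.0967. Gata4 (36 and 25.6 RPKM, then 17.1 and 37.9 RPKM) overlapped between the stages. Wt1 stood at 184 and 232 RPKM and then 133.5 and 149.7 RPKM (adjusted p = 0.544).

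Later granulosa genes were sparse. Fshr, the receptor for follicle-stimulating hormone, was detected in 6 of 22 cells of the first P6 capture and in 0 of 18 of the second, and was not tested. Inhba averaged 67.05 RPKM in the first P6 capture, where 1 cell held 63.96% of the summed value, and 0.0349 RPKM in the second. Cyp19a1, the aromatase of estrogen synthesis, was present in 3 of 40 P6 cells, and 1 cell held 71.7% of its sum in the first P6 capture.

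Among the 40 P6 cells, 14 held all of Amh, Hsd17b1 and Inhbb, 7 held a pair, 8 held 1 and 11 held none. At E16.5, 40 of 43 cells held none. Of the 20 P6 cells without Amh, 15 held Inha, 13 Nr5a2, 12 Lect1 and 17 Serpine2. Of the 20 with Amh, 20 held Inha, 19 Nr5a2, 14 Lect1 and 20 Serpine2. The P6 cells were thus uneven for Amh, Hsd17b1 and Inhbb, while Inha and Serpine2 were found in most. A value of 0 can be a missed transcript: Actb was found in all 83 cells, but Gapdh was at 0 in 8 and Hprt in 34.

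**Figure D2:**
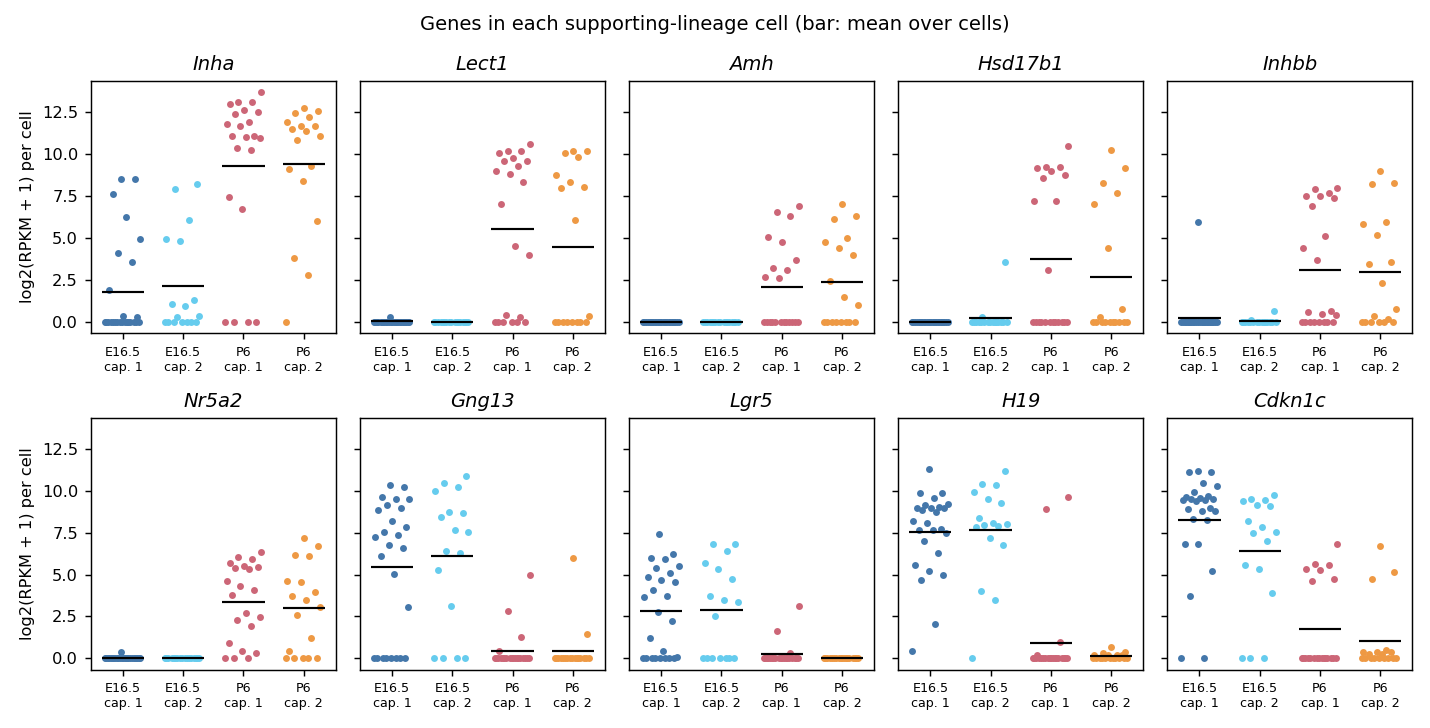
Level of 10 genes in each supporting-lineage cell, log2(RPKM + 1), by capture, with the mean over cells as a bar. Inha is high in most P6 cells, and Amh, Hsd17b1 and Inhbb are at 0 in part of them. H19 is detected in 42 of 43 E16.5 cells and 11 of 40 P6 cells, and is at 10 RPKM or more in 40 of 43 and 2 of 40.

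Of 18 fetal pregranulosa genes, 15 were tested, 8 were lower at P6 without overlap by at least 2-fold (background 15.28%) and none was higher by that rule. Lgr5, Irx3 and Bmp2 met the filter through the E16.5 captures alone and could only count as lower. Of the 12 with at least 1 RPKM in a capture of each stage, 5 were lower. The median log2 change of the 15 was −2.13. The log-mean test called Lgr5 and Gng13. Lgr5, a receptor for R-spondins, averaged 23.5 and 27.3 RPKM at E16.5 and 0.463 and 0 RPKM at P6, and it fell by 2.74 in the log-mean test (adjusted p = 0.0145). It had averaged 26.1 and 21.4 RPKM at E13.5 and at most 0.428 RPKM at E11.5. Irx3, an Iroquois transcription factor of fetal pregranulosa cells, averaged 13.2 and 13.6 RPKM and then 0.539 and 0.734 RPKM, just short of the threshold (log-mean adjusted p = 0.0650). Irx5 overlapped between the stages, at 5.13 and 0.581 RPKM and then 0.393 and 3.75 RPKM. Bmp2, a ligand of the bone morphogenetic protein family, averaged 5.52 and 6.49 RPKM and then 0 and 0.158 RPKM (log-mean adjusted p = 0.149). Rspo1, the R-spondin of the fetal ovary, averaged 27.8 and 61.9 RPKM at E16.5. At P6 it was at 34.6 RPKM in the first capture, from 4 cells, of which 1 held 61.8% of the sum, and at 0 in the second.

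Of the 5 fetal genes Irx3, Lgr5, Bmp2, Igf2 and Gng13, chosen after their values were seen, at least 2 were detected in 38 of 43 E16.5 cells and in 2 of 40 P6 cells. All 5 were already lower at P6 by the no-overlap rule, so this split follows from their choice and is no further evidence. The fetal list members Irx5, Rspo1 and Cdkn1b, which overlapped between the stages, were not among them.

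**Figure D3:**
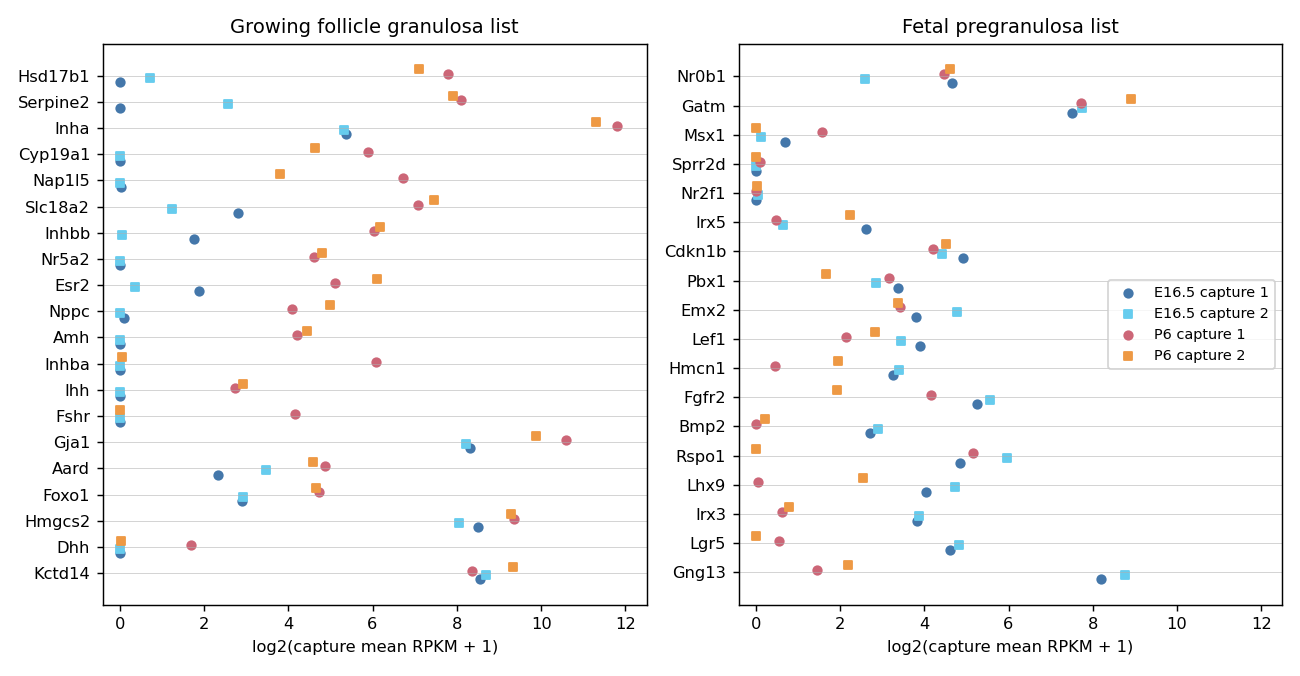
Capture means, log2(mean RPKM + 1), of every member of the growing follicle granulosa list (left) and the fetal pregranulosa list (right), with 1 point per capture. For Inha, Hsd17b1, Serpine2 and Nr5a2 both P6 points lie right of both E16.5 points, and for Gng13, Lgr5 and Irx3 they lie left of them, while Kctd14, Fshr and Rspo1 overlap.

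Of 15 tested genes of Wnt and R-spondin signalling, 6 were lower by the no-overlap rule and 1 higher (backgrounds 15.28% and 13.53%). The median log2 change was −0.83, and Lgr5 alone was called in the log-mean test. Of the 6, 4 (Lgr5, Rnf43, Axin2 and Sp5) met the filter through E16.5 alone and could only count as lower. Of the 11 with at least 1 RPKM in a capture of each stage, 2 were lower and 1 higher. List members given here as examples beside the genes named by rule were chosen after their values were seen. Rnf43, a target that removes Wnt receptors, averaged 10.0 and 14.8 RPKM and then 0.0245 and 0.820 RPKM. Axin2, another target, averaged 6.49 and 2.14 RPKM and then 0.611 and 0.0293 RPKM. Neither passed either test (lowest adjusted p = 0.144). In the BMP, activin, inhibin and AMH list, 8 of 27 tested members were higher and 6 lower without overlap, and the median was −0.13. Of the 23 with at least 1 RPKM in a capture of each stage, 5 were higher and 5 lower (backgrounds 13.53% and 15.28%). Amh, Inha and Inhbb were among the members that the log-mean test called higher. The AMH receptor Amhr2 overlapped, at 259 and 217 RPKM and then 175 and 268 RPKM.

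The imprinted genes, expressed from 1 parental copy and many of them active in fetal growth, were lower in 11 of 19 tested members and higher in 1 without overlap (backgrounds 15.28% and 13.53%), with a median log2 change of −1.19. The log-mean test called Igf2, H19, Peg3, Mest and Cdkn1c, all lower. H19, a noncoding RNA next to Igf2, averaged 423 and 540 RPKM at E16.5 and 58.2 and 0.0925 RPKM at P6, and it fell by 7.09 (adjusted p = 0.000284). The 58.2 RPKM came from 4 of 22 cells, 1 of which held 61.5% of the sum. The capture-mean adjusted p was 0.291. Mir675 and Gm27786 lie within H19, and their reads could not be told apart from its own. Igf2, the fetal growth factor, averaged 26.4 and 41.8 RPKM and then 1.27 and 0 RPKM, in 38 of 43 and 2 of 40 cells, and it fell by 3.16 (adjusted p = 0.0102). Cdkn1c, the cyclin-dependent kinase inhibitor p57, averaged 741 and 307 RPKM and then 15.3 and 9.21 RPKM, and it fell by 5.97 (adjusted p = 0.00198). Igf1r, the receptor for both insulin-like growth factors, averaged 4.48 and 12.7 RPKM and then 47.3 and 40.8 RPKM (adjusted p = 0.0612 in the log-mean test).

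Genes of the G2/M phase of cell division were each detected in a minority of cells. The most were 15 of 43 at E16.5 (Ccna2) and 14 of 40 at P6 (Top2a and Cdk1). S phase genes ranged from Cdc45, in 0 of 43 and 2 of 40 cells, to Slbp, in 27 of 43 and 25 of 40. Of 19 tested G2/M genes, 15 were higher at P6 without overlap and none lower (backgrounds 13.53% and 15.28%). The median log2 change of the 19 was 2.54 on capture means but 0.49 on the mean over cells. Of the 15, 5 met the filter through P6 alone. No G2/M gene passed either test. Top2a, which untangles DNA before division, averaged 1.17 and 0.772 RPKM and then 32.4 and 24.1 RPKM, and 1 cell held 43.1% and 48.9% of the P6 sums. At least 5 of the 20 G2/M genes at 10 RPKM or more were found in 0 of 26 and 0 of 17 E16.5 cells and in 2 of 22 and 2 of 18 P6 cells. Of 17 tested S phase genes, 7 were higher and 1 lower without overlap (same backgrounds). Of the 7, Rrm2, Cdc45 and Chaf1b met the filter through P6 alone and could only count as higher. Of the 14 with at least 1 RPKM in a capture of each stage, 4 were higher and 1 lower. Cdkn1b, the inhibitor p27 of resting cells, averaged 29.5 and 20.3 RPKM and then 17.5 and 22.1 RPKM and overlapped.

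**Figure D4:**
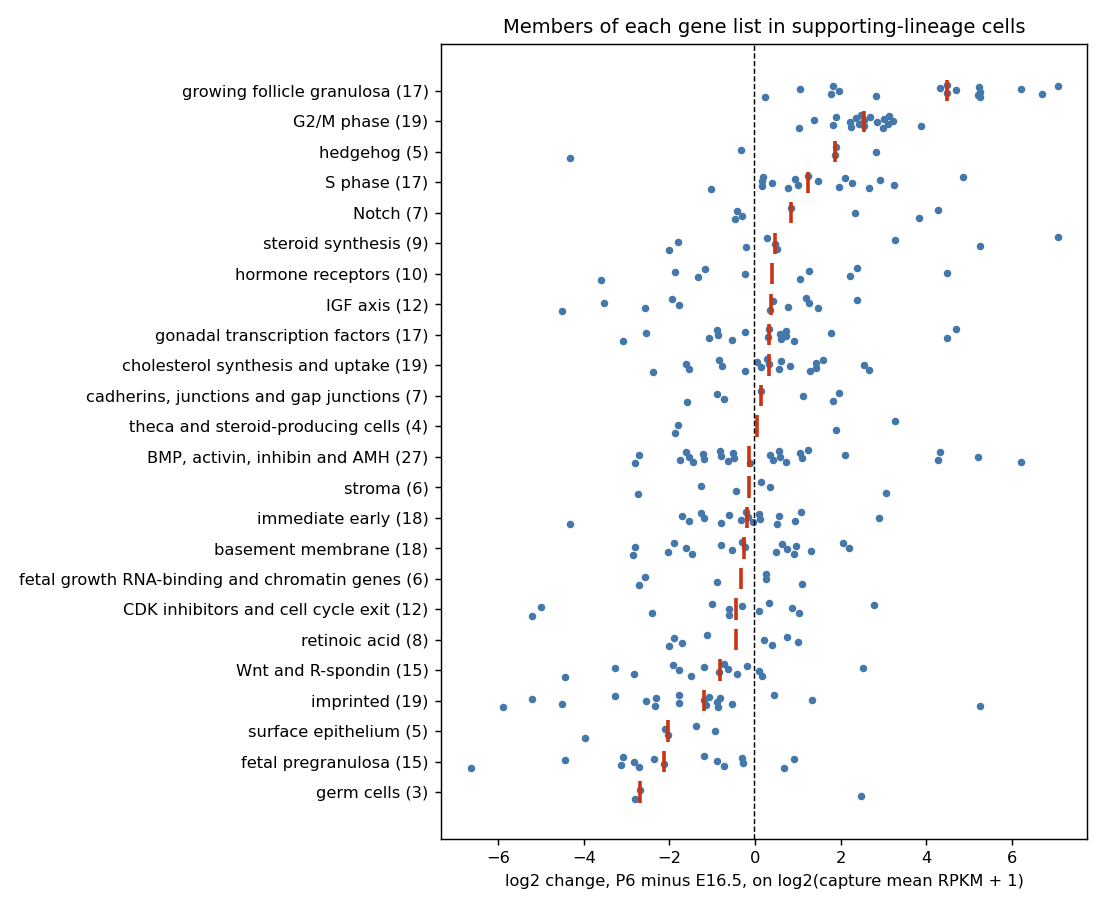
Log2 change (P6 minus E16.5, on log2(capture mean RPKM + 1)) of each tested member of the gene lists with at least 3 tested members, with the number tested in brackets, the list median as a bar and the median of all genes as a dashed line. The growing follicle granulosa list lies highest and the fetal pregranulosa, surface epithelium and germ cell lists lowest.

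Other genes called in the log-mean test, chosen after their values were seen, included the class I histocompatibility genes H2-D1 and H2-K1, whose proteins present peptides to T cells. H2-D1 averaged 38.2 and 24.2 RPKM and then 668 and 480 RPKM, and it rose by 6.30 (adjusted p = 0.000439). H2-K1 averaged 6.12 and 4.38 RPKM and then 211 and 156.7 RPKM, and it rose by 4.72 (adjusted p = 0.00243). The class I genes are near-identical in parts, so the split of reads between them is uncertain. Their partner B2m stood at 352 and 260 RPKM and then 1104 and 935 RPKM and did not pass (adjusted p = 0.211). Serpine2, a protease inhibitor on the growing follicle list, averaged 0.0105 and 4.95 RPKM and then 272 and 240 RPKM, and it rose by 6.68 (adjusted p = 0.000304). Slc18a2, a vesicular monoamine transporter, averaged 6.02 and 1.35 RPKM and then 133.6 and 174 RPKM (adjusted p = 0.00242).

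Of 9 tested genes of steroid synthesis, 3 were higher (Hsd17b1, Cyp19a1 and Hsd3b1) and 2 lower (Fdxr and Star) without overlap (backgrounds 13.53% and 15.28%). The median log2 change was 0.47, and Hsd3b1 and Hsd17b1 were called in the log-mean test. Hsd17b1 and Cyp19a1 met the filter through P6 alone. Of 19 tested genes of cholesterol synthesis and uptake, 5 were higher and 3 lower, the latter near the background of 15.28%. Their median was 0.32 and none was called. The single enzymes below were chosen after their values were seen. Hsd3b1, which makes progesterone from pregnenolone, averaged 190 and 141.1 RPKM and then 2347 and 1087 RPKM, and it rose by 4.54 in the log-mean test (adjusted p = 0.0142). Akr1cl, an aldo-keto reductase gene, averaged 17.1 and 122.4 RPKM and then 1143 and 1189 RPKM (adjusted p = 0.000439). Ptges and Hpgd, which make and break down prostaglandin E2, averaged 116.9 and 57.4 RPKM and 76.1 and 86.8 RPKM in the P6 captures, against at most 1.16 RPKM and 0.0123 RPKM at E16.5 (adjusted p = 0.00455 and 0.0102). Socs2, an inhibitor of cytokine signalling, averaged 1.33 and 8.73 RPKM and then 87.4 and 75.8 RPKM (adjusted p = 0.00166). Of the theca list, Cyp11a1 was at 0 in both P6 captures, Insl3 was listed at 0 in all 4 captures, and Cyp17a1 was found in 1 P6 cell. Of its 4 tested members, Hsd3b1 and Ptch1 were higher at P6 by the no-overlap rule, and Lhcgr and Star were lower (backgrounds 13.53% and 15.28%). Ptch1 was detected in 21 of 43 cells at E16.5 and in 33 of 40 at P6, and Star and Lhcgr each in 4 of 40 P6 cells. The list's summed level was 220 and 160 RPKM at E16.5 and 2371 and 1125 RPKM at P6, nearly all of it Hsd3b1. Hsd3b1 belongs to a family of near-identical genes, so its reads may be shared.

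Genes lower in the log-mean test, again chosen after their values were seen, included Cgn, Cav1, Gpc3 and Tnfrsf19. Cgn, a protein of tight junctions, averaged 321 and 302 RPKM and then 38.5 and 49.3 RPKM (adjusted p = 0.00455). Cav1, the coat protein of caveolae, averaged 193 and 155.3 RPKM and then 37.3 and 0.183 RPKM (adjusted p = 0.00344). Gpc3, a cell surface proteoglycan that binds growth factors, averaged 210 and 181 RPKM and then 8.08 and 10.1 RPKM (adjusted p = 0.0124). Tnfrsf19, a receptor of the tumour necrosis factor family, averaged 96.1 and 73.5 RPKM and then 1.39 and 1.71 RPKM (adjusted p = 0.00208). For each of these 4 genes every P6 capture lay below both E16.5 captures.

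Markers of other cell types differed in level in the kept cells. The 12 genes of the stroma list, none of them a gate gene, summed to 93.6 and 85.7 RPKM at E16.5 and 75.2 and 87.9 RPKM at P6. The 9 surface epithelium markers summed to 92.4 and 285 RPKM at E16.5 and 75 and 52 RPKM at P6, and 3 of 5 tested were lower without overlap (background 15.28%). Of these, Krt7 and Krt19 met the filter through E16.5 alone and could only count as lower. Of the 3 with at least 1 RPKM in a capture of each stage, 1 was lower. Krt19 averaged 10.52 and 20.3 RPKM at E16.5 and was at 0 in both P6 captures. The 11 germ cell markers summed to 15.4 and 19.3 RPKM and then 5.2 and 7.13 RPKM. Pou5f1, Dppa3, Gdf9 and Zp2 were at 0 throughout, while Sycp3 was detected in 11 of 43 and 3 of 40 cells. Of the 3 germ cell markers tested, Sycp3 and Dazl were lower and Zp3 higher at P6 without overlap (backgrounds 15.28% and 13.53%). Dazl met the filter through E16.5 alone and Zp3 through P6 alone. Zp3 was detected in 1 of 43 and 4 of 40 cells, and Bmp15 in 0 of 43 and 1 of 40. The 7 blood and immune markers summed to 2.65 and 1.23 RPKM and then 2.42 and 29.7 RPKM. Ptprc, Tyrobp and Fcer1g were at 0 throughout, while Csf1r was detected in 5 of 43 and 11 of 40 cells and Aif1 in 0 of 43 and 6 of 40. The 7 endothelial markers summed to 8.83 and 5.14 RPKM and then 6.46 and 2.45 RPKM. The 7 red cell markers reached at most 2.03 RPKM, and the 7 Sertoli markers summed to 13.3 and 17.2 RPKM and then 12.8 and 22.5 RPKM. Of the 2 Sertoli markers tested, Sox9 averaged 13.3 and 5.89 RPKM and then 0.316 and 0 RPKM, while Ptgds (0 and 10.97 RPKM, then 0.0232 and 22.5 RPKM) overlapped. A mean log2(RPKM + 1) of at least 2 over the germ cell, endothelial, immune or smooth muscle markers was found in 1 of the 83 cells, in the first E16.5 capture. Over the surface epithelium markers it was reached by 3 and 4 kept cells of the E16.5 captures and by 1 and 0 of the P6 captures.

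To see which changes were larger in supporting than in stromal cells, the difference between the gates was taken within each capture and compared between stages. On capture means, limma called 0 of 11899 genes (0%), with 986 at an unadjusted p below 0.05. On the mean over cells it called 66 (0.555%), 39 with a more positive change in supporting cells and 27 with a more negative one. Of the genes called in supporting cells by the log-mean test, 44 were also called here, all in the same direction, which is 38.3% of the former and 66.7% of the latter list. The 66 calls were lost on leaving out any 1 capture, and also without limma's intensity trend.

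Stromal capture means of Inha were 3.55 and 0.0173 RPKM and then 212 and 31.2 RPKM. Its change was larger in supporting than in stromal cells by 6.06 on the mean over cells (adjusted p = 0.00290) but by 0.94 on capture means (adjusted p = 0.873), so the size of the difference depended on how cells were averaged. Gng13 changed by −5.32 (adjusted p = 0.00290), with stromal means between 2.77 and 9.34 RPKM in the 4 captures, and Lect1 by 4.48 (adjusted p = 0.00291). Amh (2.10, adjusted p = 0.0389), Inhbb (2.72, adjusted p = 0.0296), Hsd17b1 (2.93, adjusted p = 0.0232) and Nr5a2 (2.75, adjusted p = 0.0296) passed as well. Gja1 passed at 3.69 (adjusted p = 0.0337), with stromal means of 179 and 168 RPKM and then 183 and 207 RPKM. On capture means the differences were −7.92 for Gng13, 5.26 for Lect1, 3.92 for Amh, 3.71 for Inhbb, 5.85 for Hsd17b1, 3.40 for Nr5a2 and 1.80 for Gja1, none of them called (adjusted p from 0.254 to 0.590). Hsd3b1, chosen after its values were seen, differed by 3.38 on the mean over cells (adjusted p = 0.0495) and by 0.04 on capture means.

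H19, Igf2 and Cdkn1c did not pass this test. H19 averaged 427 and 386 RPKM in stromal cells at E16.5 and 28.3 and 13.4 RPKM at P6, and its difference was −0.89 (adjusted p = 0.778). Igf2 averaged 32.5 and 61.5 RPKM and then 5.17 and 2.73 RPKM there (difference −0.24, adjusted p = 0.948), and Cdkn1c 311 and 155.1 RPKM and then 48.4 and 34.3 RPKM (difference −2.66, adjusted p = 0.169). For these 3 genes stromal cells were also lower at P6 in both captures. A missed threshold does not show that the changes were equal.

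The sort reporter eGFP, chosen after its values were seen, averaged 2008 and 1423 RPKM in supporting cells at E16.5 and 519 and 553 RPKM at P6, while in stromal cells it averaged 390 and 135.5 RPKM and then 817 and 725 RPKM. The difference was −4.86 (adjusted p = 0.00203), and the change in supporting cells alone had an adjusted p of 0.0540. At E16.5 the reporter was thus higher in supporting than in stromal cells of both captures, and at P6 it was lower in both. Sorting on eGFP was common to all captures, and its part in these changes was not tested.

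**Figure D5:**
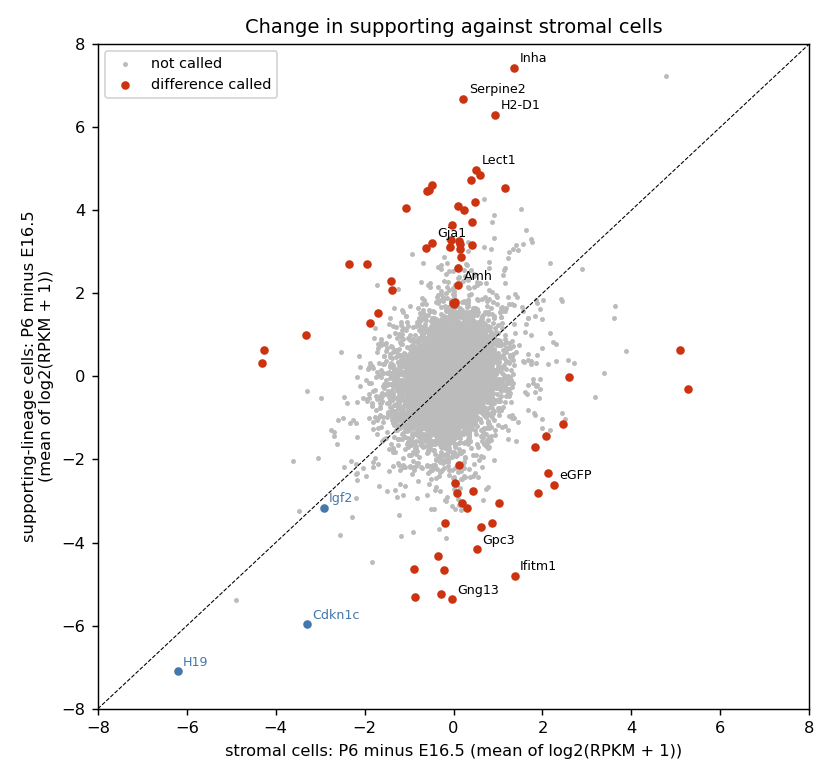
Change from E16.5 to P6 of each tested gene in stromal cells (horizontal axis) and in supporting-lineage cells (vertical axis), both as differences of the mean over cells of log2(RPKM + 1), with the 66 genes called for the difference in red and the diagonal of equal change dashed. Inha, Serpine2, H2-D1 and Gng13 lie far from the diagonal, and H19 and Igf2 lie near it.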

How the data were processed

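The authors deposited 1 table of 663 columns, 1 per cell, from C1 SMARTer and Nextera XT libraries of polyadenylated RNA, per the labels' protocols. It names no unit. The deposited values were taken as RPKM because, multiplied by gene length, a median of 73.4% of low values per cell lay within 0.02 of whole multiples of the worth of 1 read. The build was GRCm38.p3 (mm10), per the submitters' processing notes. Aligner, counting method and strand were not given in the sources used here. Positions came from GENCODE vM21, which held 37908 of the names. Of 43347 names, 27 that had become dates were dropped. A repeat library was averaged with its first, leaving 662 cells, and no cell was removed.

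limma 3.58.1 in R 4.3.3, with an intensity trend and 2 residual degrees of freedom, was fitted to 4 captures of 1 sequencing series, with a pseudocount of 1, 10 gate genes left out and Benjamini-Hochberg adjustment over 11899 genes. Fold changes on this scale understate those of low genes. The script was tested on simulated data. Genes were named by rule: up to 12 in each direction by log2 change among non-overlapping called genes without provisional names, up to 3 called members per list, up to 5 per direction called in the difference from stromal cells, and 20 fixed genes. The members, the 29 lists (403 genes) and the tests were chosen with earlier results of these data known. The log-mean test was listed as an alternative to the capture-mean test. Leaving out captures or cells in the log-mean test, and leaving out surface epithelium cells or each gene's highest cell, were chosen after seeing the data. A result for 1 list member is not reported here.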

Additional observations from a re-analysis of the deposited data

Results flagged for a closer look

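These genes changed differently from E16.5 to P6 in supporting-lineage and stromal cells by the test of the difference on the mean over cells of log2(RPKM + 1) (limma, adjusted p below 0.05): Inha by 6.06, Lect1 by 4.48, Gja1 by 3.69, Hsd17b1 by 2.93, Nr5a2 by 2.75, Inhbb by 2.72, Amh by 2.10 and Gng13 by −5.32. The same test on capture means called none of them, with 986 genes at an unadjusted p below 0.05, and there the difference for Inha was 0.94.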

How the results depend on the processing

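The count of 4 genes called on capture means depended on the setting. It was 58 higher and 57 lower on the mean over cells, 91 (62 and 29) with 11 captures sharing the spread, 13 (8 and 5) with a pseudocount of 10 RPKM or a filter of 1 RPKM in 1 capture, 11 (6 and 5) with a filter of 10 RPKM in 2 captures, and 9 (6 higher) without the highest cell of each gene and capture. It was 1 (1 higher, 0 lower) with a pseudocount of 0.1 RPKM, a gate of 2 or cells scaled to the same sum. It was 0 (0 higher, 0 lower) without a filter, without the intensity trend and without cells with surface epithelium markers. Leaving out each capture in turn, run for the capture-mean and log-mean tests at their first settings and for both differences from stromal cells, gave 0 to 0 calls. The log-mean test gave 65 calls without surface epithelium cells and 45 without the trend. The difference from stromal cells gave 66 calls on the mean over cells, 0 of them without the trend, and 0 in each capture-mean fit run. Of 21 genes named by rule and tested, 19 kept the sign of their capture-mean change throughout. Gata4 (−0.24) ranged from −0.79 to 0.31 on leaving out each capture, above 0 only without the first P6 capture. Irx5 (−0.28) ranged from −1.25 to 0.70, above 0 without the first E16.5 capture (0.70) and without the first P6 capture (0.61), and was 0.33 without the 1 cell with other cell type markers. The cause was not tested. No paired analysis was possible because the captures of both stages share no replicate number in the labels. With 2 captures a stage and 40 to 43 cells, a gene missing from a cell may have been missed by the library.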
